A study of Mus musculus with 4 samples.

Results

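Hedgehog signalling was examined in the stomach of mice that overexpress *c-Myc* in parietal cells. The genes followed here are 9 named ones, taken by symbol from 46095 gene names. They are the ligands *Shh* and *Ihh*, the membrane proteins *Ptch1*, *Smo* and *Hhip*, the transcription factors *Gli1*, *Gli2* and *Gli3*, and their inhibitor *Sufu*. All 9 had enough counts to be tested. Hedgehog ligands are secreted proteins that bind Patched receptors such as *Ptch1*, and bound Patched no longer holds Smoothened (*Smo*) inactive. Active *Smo* releases the GLI factors from *Sufu*. *Gli1*, *Ptch1* and *Hhip* are themselves classical targets of this pathway, so that their mRNA is often read as its output. In the stomach *Shh* is known to be made by parietal cells and *Ihh* by surface mucous (pit) cells, and the cells that answer lie mostly in the mesenchyme under the epithelium.

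Bulk RNA was sequenced from the stomach of C57BL/6 mice at 12 weeks of age, with 2 samples labelled WT and 2 labelled MYC-KI. The series' design text speaks of triplicates, and the 2 samples of each genotype are what was analysed here. WT mice are *Myc fl/fl* littermates, which carry the Cre-dependent *c-Myc* allele without Cre. *Atp4b-cre; Myc OE* mice (MYC-KI, genotype *Atp4b-cre; Myc fl/+*) also carry Cre under the *Atp4b* promoter of parietal cells, the acid-secreting cells of the gastric gland, while whole tissue was read. Counts summed to 36152857 and 30260305 in WT, against 31350412 and 41463647 in transgenic samples. The row of *Myc* held 1062 and 759 counts for WT, against 735 and 1091 for the transgenic pair (log2 fold change -0.35, adjusted p = 0.163 from edgeR). In normalized CPM both transgenic samples lay below both WT samples. The transgene is human *c-Myc*, and whether its reads reach the mouse row is not known, so *Myc* does not check the labels.

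In the deposited row order the transgenic counts did not follow the gene names. The names were therefore sorted by character code (capitals before lower case) and the transgenic counts, kept in their own order, were placed beside them, while WT stayed as it was. Between the 2 orders *Ihh*, *Hhip*, *Gli1*, *Gli2* and *Gli3* move by 1 row, and *Shh*, *Ptch1*, *Smo* and *Sufu* by 397 rows. In the 61 rows around each gene, Pearson's r between the genotypes (mean log2(count + 1), across neighbouring genes, which are not replicates) lay between 0.971 and 0.994 after this step. Beforehand it lay between -0.033 and 0.514. The transgenic counts deposited beside *Gli1*, for instance, are those of *Gli2*, and those beside *Ptch1* are those of *Rbbp7*. All values below are from the re-sorted table.

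The samples carried the markers of stomach, and some stood apart. In WT, *Atp4a*, the catalytic subunit of the gastric proton pump, had 257861 and 221767 counts, and *Pgc*, the chief cell pepsinogen, had 2718249 and 2139907. The pancreatic genes *Cpa1*, *Prss1*, *Try4* and *Ins2* had 0 counts in all 4 samples, as did the lipase gene *Lipf*, written among the chief cell markers. Other pancreatic markers had counts, with *Cela1* at 8290 and 5887 in WT against 4213 and 6494 in transgenic samples. *Cela2a* had 20 and 18 against 0 and 0, and *Pnlip* had 1 and 0 against 18 and 7. *Xist*, the RNA of the inactive X chromosome, had 17846 counts in WT replicate 2 against 85, 113 and 201 in WT replicate 1 and the *c-Myc* transgenic samples, while the Y-linked *Ddx3y* had 5 counts there against 1861, 1941 and 2623, so WT replicate 2 differed from the others in sex. The skeletal muscle markers (5 genes) summed to 123.0 and 86.4 normalized CPM (counts scaled to library size, CPM, after TMM) in WT. The same markers summed to 15.8 in *c-Myc* transgenic replicate 1, led by *Ckm* (14.0), and to 1104 in replicate 2, led by *Acta1* (516). The 9 markers of squamous forestomach summed to 3609 and 2193 in WT, against 1677 and 6346 in transgenic samples. *Krt13* led in WT and in transgenic replicate 2, and *Krt10* in transgenic replicate 1. Intestinal markers, led by *Vil1*, summed to 535 and 356 in WT, 549 in transgenic replicate 1 and 229 in replicate 2. Fits without 1 sample are therefore given where they changed a call or a direction.

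*Ihh* was the hedgehog gene that rose. Its WT counts were 1660 and 1415 and its transgenic counts 3791 and 4964, or 49.5 and 50.7 against 111.8 and 111.1 normalized CPM. Both transgenic samples lay above both WT samples, and within each genotype the samples nearly coincided. The mean was 50.1 ± 0.888 in WT and 111.4 ± 0.456 in transgenic samples (SD, n = 2 each). This 2.22-fold rise in *Atp4b-cre; Myc OE* mice is 1.15 on the log2 scale (standard error 0.073, 95% interval 0.96 to 1.35), with an adjusted p of 0.0140 in edgeR. The fold change was 1.13 on the log2 scale without WT replicate 1 (adjusted p = 0.196 from edgeR) and 1.17 without WT replicate 2 (adjusted p = 0.232), where the range over all alternatives but the deposited order was 1.74e-19 to 0.232. In those fits of 3 samples the lone WT sample is assumed to vary like the transgenic pair, and edgeR called 0 genes of the whole table, with 3554 and 3410 at an unadjusted p-value under 0.05.

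*Shh*, the other ligand, was not detectably different. *Shh* counts were 1505 and 1460 for WT against 1559 and 2052 for the transgenic pair, or 44.8 and 52.3 against 46.0 and 45.9 normalized CPM. The transgenic values fell between the WT values. The log2 fold change was -0.08, with a 95% interval from -0.37 to 0.21 (adjusted p = 0.647 from edgeR). Its sign depended on the scaling and on 1 sample, since it was 0.14 when counts were scaled by library size alone and 0.032 without WT replicate 2.

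Most markers of the cells that make these ligands were lower. Among 12 parietal cell markers 10 were called lower and 0 higher (83.3%, beside 10.7% of all tested genes). Their median log2 fold change was -3.83. Their summed level was 13076 and 13396 normalized CPM in WT, against 1724 and 1690 in transgenic samples. The most abundant in WT, *Atp4a*, was 48.0-fold lower, and *Atp4b* was 56.6-fold lower. *Car2*, the cytosolic carbonic anhydrase, and *Tcirg1*, a subunit of the vacuolar proton pump, were the 2 that did not pass, with log2 fold changes of -0.30 and 0.32. Of 6 pit cell markers 5 were called lower and 0 higher (83.3%, beside 10.7% of all tested genes), with a median of -1.73. The sixth, the transcription factor gene *Foxq1*, stood at -0.11. The pit cell markers summed to 49218 and 58531 normalized CPM in WT, against 12144 and 19241 in transgenic samples, led by *Gkn2*, a gastrokine. *Muc5ac*, the pit cell mucin, was 5.51-fold lower. Over all tested genes the median log2 fold change was 0.01. In bulk tissue, fewer cells of a type and less RNA per cell cannot be told apart, and the part of these markers in the ligand values was not tested.

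The makeup of the ligands was compared per kilobase of exon (the union of exons in GENCODE M21). *Shh* made up 48.5% and 51.9% of the summed CPM per kilobase of the 3 hedgehog ligands in WT, and *Ihh* 50% and 47%. In *c-Myc* transgenic samples *Ihh* made up 69.1% and 69% and *Shh* 30.4% and 30.6%. *Dhh*, the third ligand and best known from Schwann cells and testis, held 1.44% and 1.10% in WT, against 0.555% and 0.433% in transgenic samples. The sum itself was 32.5 and 35.4 CPM per kilobase in WT, against 53.1 and 52.8 in transgenic samples. These shares are a description of 2 samples per genotype and were not tested.

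**Figure D1:**
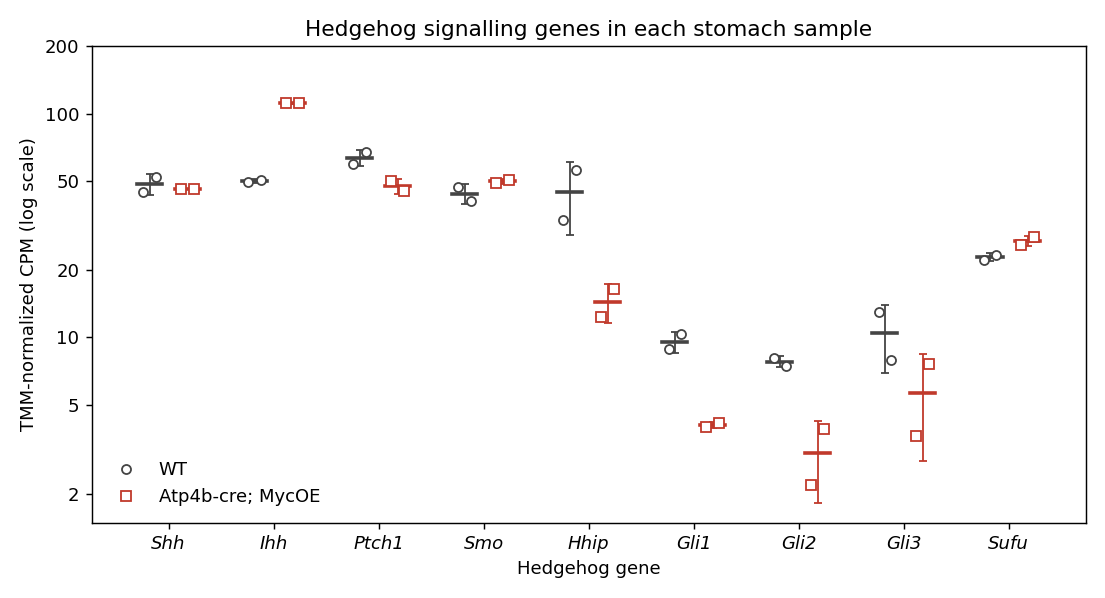
TMM-normalized CPM (y axis, log scale) of the 9 hedgehog genes (x axis) in each WT sample (circles) and each *Atp4b-cre; Myc OE* sample (squares), with horizontal lines for the mean and bars for the SD of 2 samples. *Ihh* lies near 50 in WT and near 111 in transgenic samples, while *Hhip* and the *Gli* genes lie lower in transgenic samples and *Shh* overlaps.

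*Hhip*, the Hedgehog-interacting protein, binds ligand at the cell surface without signalling and so acts as a decoy. WT samples held 1122 and 1570 counts of it and transgenic samples 420 and 734, or 33.4 and 56.3 against 12.4 and 16.4 normalized CPM. The groups did not overlap, although the WT samples were 1.68-fold apart. *Hhip* was 3.11-fold lower in *Atp4b-cre; Myc OE* mice (log2 fold change -1.64, standard error 0.31, 95% interval -2.47 to -0.80, adjusted p = 0.0446 from edgeR). Its fold change was -1.97 without WT replicate 1 (adjusted p = 0.196), -1.22 without WT replicate 2 (0.238) and -1.45 without transgenic replicate 1 (0.0805), none of which passed. The adjusted p-values over the alternatives ran from 8.59e-06 (DESeq2) to 0.238.

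*Ptch1*, the ligand-binding receptor, fell short of the thresholds. It had 59.7 and 67.2 normalized CPM in WT, against 50.1 and 45.0 in transgenic samples. Both transgenic samples were below both WT samples, by a smaller margin than for *Hhip*. The log2 fold change was -0.42 (standard error 0.11, 95% interval -0.71 to -0.13, adjusted p = 0.0749 from edgeR), and the alternatives other than the deposited order gave -0.50 to -0.19. *Smo*, the signal transducer, had 47.1 and 40.8 normalized CPM in WT, against 49.0 and 50.8 in transgenic samples. Its log2 fold change of 0.18 had a 95% interval from -0.10 to 0.47 (adjusted p = 0.297), so a rise or a small fall is compatible with these samples.

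*Gli1*, a transcriptional activator whose own mRNA is induced by the pathway, fell. WT samples held 297 and 288 counts of *Gli1* and transgenic samples 135 and 186, or 8.85 and 10.3 against 3.98 and 4.16 normalized CPM. The transgenic samples nearly coincided and lay below both WT samples. *Gli1* was 2.35-fold lower, a log2 fold change of -1.23 (standard error 0.21, 95% interval -1.79 to -0.68, adjusted p = 0.0369 from edgeR). When 1 sample was left out the fold change kept near -1.34 (without WT replicate 1), -1.12 (WT replicate 2), -1.20 (transgenic replicate 1) and -1.27 (transgenic replicate 2). None of those 4 fits passed, with adjusted p-values from edgeR of 0.205, 0.246, 0.0665 and 0.0501, while DESeq2 on all samples gave 9.39e-05.

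*Gli2*, the main activator downstream of *Smo*, and *Gli3*, which acts largely as a repressor, were lower in the mean and more variable. Counts of *Gli2* were 272 and 209 for WT against 74 and 174 for the transgenic pair, or 8.11 and 7.49 against 2.18 and 3.90 normalized CPM. Its transgenic samples lay below both WT samples and differed 1.79-fold from each other. The log2 fold change of *Gli2* was -1.36 (standard error 0.36, adjusted p = 0.0783 from edgeR), not past the threshold. DESeq2 called it (-1.36, adjusted p = 0.00614), and so did edgeR without a filter on low counts (adjusted p = 0.0422) and without transgenic replicate 2 (-1.84, adjusted p = 0.0318), within a range of 0.00614 to 0.306. *Gli3* had 13.0 and 7.96 normalized CPM in WT, against 3.63 and 7.61 in transgenic samples. Its groups nearly touched, and the log2 fold change of -0.89 had a 95% interval from -2.14 to 0.35 (adjusted p = 0.256). It ranged from -1.53 without transgenic replicate 2 to -0.46 without transgenic replicate 1. *Sufu*, which holds GLI factors in the cytoplasm, had 22.2 and 23.5 normalized CPM in WT, against 26.0 and 28.0 in transgenic samples, a log2 fold change of 0.24 (95% interval -0.07 to 0.55, adjusted p = 0.222).

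In all, 1 of the 9 genes was called higher and 2 lower, and 6 did not pass. A call needed an adjusted p-value below 0.05 together with a change of more than 1.5-fold. Across 17643 tested genes 10.7% were called, 5.65% higher and 5.08% lower, and the share of higher calls among them went from 52.6% to 75.5% with library size in place of TMM. That scaling moved the median over all tested genes from 0.01 to 0.23 on the log2 scale, and *Ihh*, *Hhip* and *Gli1* were called under it too. The median of the 9 genes was -0.42. In 5 of them both transgenic samples lay below both WT samples and in 3 both lay above, which held for 31.5% and 33.3% of all tested genes.

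Levels of different genes were compared as mean CPM per kilobase of exon, a description that depends on which isoforms are expressed. In WT the order was *Shh* (17.1), *Ihh* (16.4), *Smo* (7.82), *Hhip* (4.94), *Ptch1* (4.48), *Sufu* (2.97), *Gli1* (1.92), *Gli2* (1.14) and *Gli3* (1.09). The neighbours *Shh* and *Ihh*, *Hhip* and *Ptch1*, and *Gli2* and *Gli3* overlapped between samples. In *c-Myc* transgenic samples the order was *Ihh* (36.6), *Shh* (16.1), *Smo* (8.88), *Sufu* (3.51), *Ptch1* (3.35), *Hhip* (1.59), *Gli1* (0.815), *Gli3* (0.586) and *Gli2* (0.442). There *Sufu* overlapped with *Ptch1* and *Gli3* with *Gli2*. *Ihh* thus moved from the level of *Shh* to above it, and *Hhip* from above *Sufu* to below it.

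The genes lie at the following places in GRCm38 (GENCODE M21), the assembly that mm10 in the submitters' processing notes stands for. *Ihh* spans chr1:74945315-74951672 and *Gli2* chr1:118834132-119053619, both on the minus strand. *Shh* spans chr5:28456815-28467256 (minus), *Smo* chr6:29735503-29761365 (plus), *Hhip* chr8:79965851-80058006 (minus) and *Gli1* chr10:127329882-127341974 (minus). *Gli3* spans chr13:15463235-15730026 (plus), *Ptch1* chr13:63508328-63573598 (minus) and *Sufu* chr19:46396896-46488804 (plus). *Shh* is overlapped on the other strand by *Gm26894* and by *9530036O11Rik*, which had 116, 118, 138 and 109 counts in WT replicates 1 and 2 and transgenic replicates 1 and 2. *Gli1* is overlapped on the other strand by *Gm47200* and by *Arhgap9*, which had 89, 82, 72 and 60 counts in the same order. Whether counting used strand is not given in the sources used here, so reads from such partners cannot be told apart. Other partners are *A930032L01Rik* of *Ptch1* and *Gm13717* of *Smo* on the same strand, *Gm27820* of *Hhip* and *Mir6346* of *Gli2* on the other strand, and for *Gli3* *Gm48343* on the same and *Gm6556* on the other strand. *Dhh* overlaps with *Rhebl1* on the same and *Gm49442* on the other strand. *Ihh* and *Sufu* had no overlapping gene.

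Promoter windows of RefSeq (GRCm38.p6, 250 bases before to 50 after each start) were matched for 7 of the 9 genes, all but *Shh* and *Gli1*. The GLI motif GACCACCCA, read on both strands, was in 0 of the 7 windows and in 0.253% of all 32851 windows. Its shorter core ACCACCC, which lies inside it, was in the window of *Gli2* alone and in 4.61% of all windows. CACGTG, the E-box that MYC and its partner MAX bind, was in 0 of the 7 and in 7.15% of all. These counts say only that the letters are or are not in these windows. The 250 bases before the start are shown for *Ihh* and *Hhip*, called in opposite directions, and for *Gli2*, where capitals mark the core on the opposite strand. They lie at chr1:74951673-74951922, chr8:80058009-80058258 and chr1:119053620-119053869, all on the minus strand.
Ihh: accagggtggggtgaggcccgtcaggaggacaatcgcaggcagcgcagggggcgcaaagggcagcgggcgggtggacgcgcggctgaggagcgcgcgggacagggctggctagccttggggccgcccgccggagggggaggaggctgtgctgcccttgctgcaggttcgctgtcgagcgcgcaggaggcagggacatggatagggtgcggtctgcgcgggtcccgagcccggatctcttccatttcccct
Hhip: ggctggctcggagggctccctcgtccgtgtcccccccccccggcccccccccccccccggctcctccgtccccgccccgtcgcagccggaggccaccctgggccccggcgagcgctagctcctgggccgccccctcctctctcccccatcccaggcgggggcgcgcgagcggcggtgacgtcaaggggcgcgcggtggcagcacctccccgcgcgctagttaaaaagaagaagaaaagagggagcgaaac
Gli2: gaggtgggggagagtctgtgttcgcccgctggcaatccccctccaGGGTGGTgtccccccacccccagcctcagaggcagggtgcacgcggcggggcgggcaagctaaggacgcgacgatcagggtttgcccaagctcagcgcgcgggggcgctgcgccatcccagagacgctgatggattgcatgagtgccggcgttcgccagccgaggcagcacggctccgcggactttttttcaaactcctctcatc

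Beyond these 9, a list of 56 other pathway genes in the table was read in the same fit, and 55 were tested. Of them 3 were called higher and 5 lower (14.5% together, beside 10.7% of all tested genes), with a median log2 fold change of -0.18. Over the table DESeq2 called 3232 of 26731 genes (1502 higher and 1730 lower), and 16 listed ones (3 higher and 13 lower). Without a filter on low counts edgeR called 2618 of 26731 (1326 higher and 1292 lower), and 15 listed ones (4 higher and 11 lower). Without either WT sample edgeR called 0 of them, as of all genes, and the 8 called genes kept their direction in both of these fits. The list was written with earlier results of these data known, so its counts are a description.

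Of 6 tested genes for the processing and release of ligand, 2 were called lower and 0 higher (33.3%, beside 10.7% of all tested genes). *Scube1*, of a family of secreted proteins that help release hedgehog ligand, had 23.5 and 30.8 normalized CPM in WT, against 9.38 and 9.47 in transgenic samples, 2.88-fold lower (log2 fold change -1.53, adjusted p = 0.0234 from edgeR). *Disp2*, a relative of the ligand exporter *Disp1*, had 468 and 306 counts in WT, against 145 and 218 in transgenic samples (-1.44, adjusted p = 0.0325), and was not called without transgenic replicate 1 (-1.35, adjusted p = 0.0568). In both genes the groups were well apart. *Disp1* stood at -0.52, *Dhh* at -0.71, *Scube2* at 0.013 and *Hhat*, the enzyme that attaches palmitate to the ligand, at 0.36, none past the threshold. *Scube3* had too few counts to be tested.

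Among receptors and co-receptors 2 of 6 were lower and 0 higher (33.3% called, beside 10.7% of all tested genes). *Lrp2* (megalin), an endocytic receptor that binds *Shh* among many ligands, had 11.7 and 26.0 normalized CPM in WT, against 0.383 and 0.224 in transgenic samples, the latter from 13 and 10 counts. It was 62.4-fold lower (log2 fold change -5.96, standard error 0.60, adjusted p = 0.0198 from edgeR). The log2 fold change was -6.42 without WT replicate 1 and -5.27 without WT replicate 2, and neither fit called it (adjusted p = 0.196 and 0.232 from edgeR). *Cdon*, a co-receptor that helps present ligand to *Ptch1*, had 37.4 and 33.9 normalized CPM in WT, against 20.2 and 23.1 in transgenic samples (-0.72, adjusted p = 0.0399). *Cdon* was not called without transgenic replicate 1 (-0.62, adjusted p = 0.0680 from edgeR) or with library size scaling (-0.50, adjusted p = 0.0600). The other co-receptors *Gas1* (-0.85, adjusted p = 0.118) and *Boc* (-0.37) did not pass. *Hhatl*, a relative of *Hhat* placed in this list, stood at 0.074.

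Of 24 tested genes of the cilium and of signal transduction, 1 was called higher and 0 lower by edgeR (4.17%, beside 10.7% of all tested genes), with a median of -0.07. *Csnk1e*, a casein kinase, rose from 25.2 and 23.8 to 43.5 and 49.1 normalized CPM (log2 fold change 0.92, adjusted p = 0.0236 from edgeR). The lowest was *Gpr161*, a ciliary receptor that restrains the pathway, at -1.01 (adjusted p = 0.0654).

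Of 19 genes known elsewhere as targets of GLI factors, 2 were called higher and 1 lower (15.8%, beside 10.7% of all tested genes). *Ccnd1* (cyclin D1) rose from 129.8 and 142.6 to 229.1 and 230.4 normalized CPM (log2 fold change 0.75, adjusted p = 0.0228 from edgeR). *Cdk6*, its kinase partner, rose from 41.9 and 41.3 to 62.7 and 62.9 (0.59, adjusted p = 0.0253), just past the fold threshold, and just under it with size factors of DESeq2 (0.58). *Foxa2*, a forkhead factor of gut epithelium, fell from 55.9 and 62.0 to 14.9 and 16.4 (-1.91, adjusted p = 0.0122). All 3 have many other regulators. The targets best known from gut mesenchyme did not pass, with *Foxf1* at -0.64 (adjusted p = 0.0752), *Bmp4* at -0.95 (0.0706), *Osr1* at -1.07 (0.127), *Foxf2* at -0.61 (0.310) and *Foxl1* at -0.44 (0.472). The highest value was that of *Mycn* (0.84, adjusted p = 0.104).

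**Figure D2:**
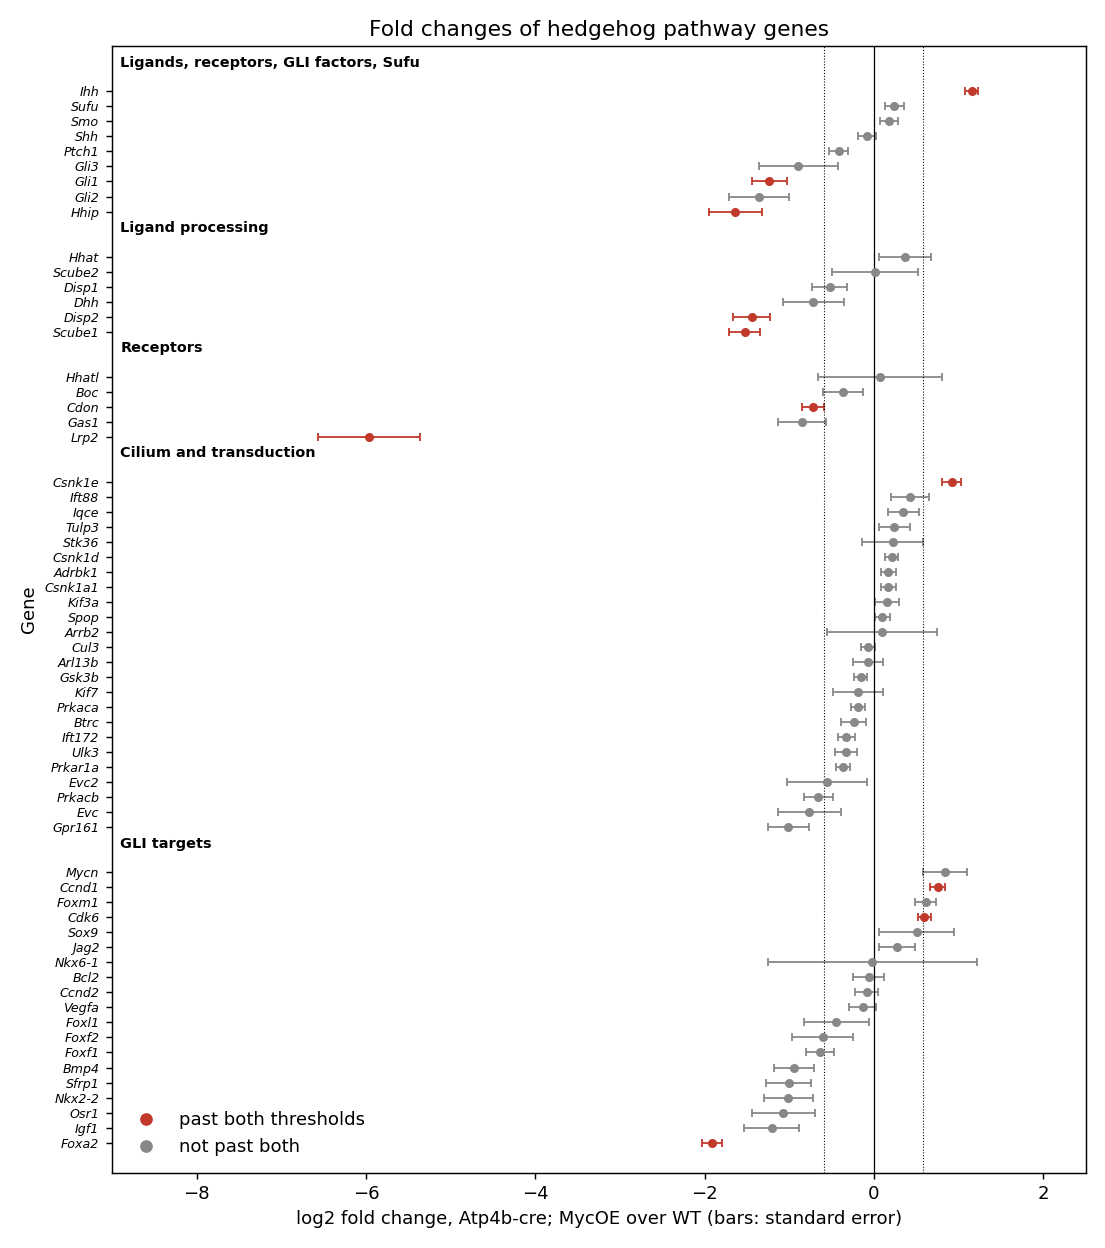
Log2 fold changes (x axis) of *Atp4b-cre; Myc OE* over WT for the 9 hedgehog genes and other tested pathway genes (y axis), grouped by role, with bars for the standard error. Dotted lines mark the fold threshold, and the 11 genes past both thresholds (3 of the 9 and 8 others) are in red, from *Lrp2* at -5.96 to *Ihh* at 1.15.

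Markers of the tissue that answers hedgehog ligand were read beside *Gli1*, *Hhip* and the other lower genes. Of 13 markers of gastric mesenchyme, 2 of which (*Foxf1* and *Foxl1*) are also in the list of targets, 3 were called lower and 0 higher (23.1%, beside 10.7% of all tested genes). All 13 had negative log2 fold changes, with a median of -1.05. Their summed level was 2687 and 3013 normalized CPM in WT, against 831 and 1431 in transgenic samples, led by the collagen gene *Col3a1*. The 3 called were *Col3a1* at 2.86-fold (adjusted p = 0.0437 from edgeR), the collagen gene *Col1a1* at 2.77-fold (0.0349) and *Pdgfra*, a receptor of fibroblasts, at 1.99-fold (0.0489). *Gli1* at 2.35-fold lay within their range and *Hhip* at 3.11-fold above it, and these differences were not tested. All 5 endothelial markers were lower, from 2.01-fold (*Cdh5*) to 3.55-fold (*Kdr*). Their median was -1.48 and their sums were 359.8 and 343.5 against 138.3 and 129.7. *Pecam1* led in every sample but WT replicate 1, where *Kdr* led. Of 9 smooth muscle markers 0 were called, with sums of 8285 and 5303 against 2729 and 5825, led by *Myh11*. No marker of these 3 lists was at 0 in every sample. Their part in the values of the hedgehog genes was not tested.

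Samples of a genotype also differed from each other. Between transgenic replicates 2 and 1 the ratio of normalized CPM was 2.10 for *Gli3*, 1.79 for *Gli2* and 1.33 for *Hhip*, beside a median of 1.56 over the mesenchymal and 2.07 over the smooth muscle markers. The same ratio was 1.05 for *Gli1*, 0.999 for *Shh* and 0.994 for *Ihh*, beside a median of 1.001 over the endothelial markers and over all tested genes. Between WT replicates 2 and 1 it was 0.614 for *Gli3*, 0.924 for *Gli2* and 1.68 for *Hhip*. Beside these stood medians of 0.642 for smooth muscle, 1.11 for mesenchyme, 1.03 for endothelium and 2.22 for adipocytes. For parietal cell markers the medians were 1.28 in transgenic samples and 1.08 in WT, and for pit cell markers 1.54 and 1.17. For chief cell markers they were 0.620 and 0.945, and for mucous neck markers 0.451 and 1.25, in the same order. In the transgenic pair the adipocyte markers *Fabp4* and *Cidec* had ratios of 1.27 and 1.32. *Plin1* (1 and 56 counts in transgenic replicates 1 and 2) and *Adipoq* (0 and 80) had too few counts in replicate 1 for a ratio. The squamous markers had median ratios of 3.51 in transgenic samples and 0.632 in WT. Those of 5 markers of enteric glia and Schwann cells were 1.96 and 0.610 in the same order. The part of any of these cell types in the ratios of the hedgehog genes was not tested.

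Markers of other cell types were read in the same tissue. Their counts stand beside 10.7% of all tested genes called, 5.08% lower. Among 5 tested chief cell markers 4 were lower, with sums of 84853 and 80511 normalized CPM in WT, against 1198 and 1518 in transgenic samples, led by *Pgc*. The 4 mucous neck markers, led by *Tff2*, had 0 calls in edgeR and sums of 10147 and 12592 against 20377 and 8948, so the transgenic samples lay on both sides of WT. Among 6 antral and endocrine markers, led by *Chga*, 4 were lower (2158 and 1373 against 436 and 466). Of 4 adipocyte markers, led by *Fabp4* in WT and by *Cidec* in transgenic samples, 1 was lower (126 and 258 against 33.5 and 46.7). The leukocyte markers, led by *Ptprc*, summed to 37.5 and 45.9 against 34.1 and 27.7, and 1 of 5 tested was lower, the integrin gene *Itgam* (12.1 and 14.0 against 3.83 and 3.85). Of 2 tested pancreatic markers 2 were lower, led by *Cela1* (248 and 212 against 125 and 146 for the list). Squamous, intestinal and skeletal muscle markers had 0 calls in edgeR.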

How the data were processed

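The comparison used stomach RNA in 2 samples per genotype. The authors deposited raw counts per gene symbol, with 1 column per sample and no normalization. The submitters' processing notes name HISAT2 and mm10, and the counting tool and annotation are not given in the sources used here. Columns were mapped by name, and the transgenic counts were re-sorted as described above.

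Genes were tested over the whole table with edgeR 4.0.16 in R 4.3.3 (TMM, filterByExpr on genotype, glmQLFit, glmQLFTest, no covariates, Benjamini-Hochberg over all tested genes). Calls needed an adjusted p-value below 0.05 and a change of more than 1.5-fold, as in the methods of the study. Standard errors are the absolute log2 fold change over the square root of F. Replicates differed by more than counting noise (chi-square per degree of freedom 29.3 in WT and 99.1 in transgenic samples). The labels do not say that samples are separate animals, so p-values measure the spread between these samples.

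The 9 genes, the pathway list and the marker lists were chosen with earlier results of these data known. All 9 genes are named, and of other pathway genes those called, the extremes of each group and examples of known function chosen after their values were seen. Results for 2 genes of these lists are not reported here. Alternatives were DESeq2 1.42.0, its size factors, library size, 2 other filters on low counts, the replicate block, no fold threshold, the deposited order and leaving out each sample. The fits were tested on simulated data.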

Additional observations from a re-analysis of the deposited data

How the results depend on the processing

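*Ihh*, *Hhip* and *Gli1* kept their direction under all 10 alternatives other than the deposited order, with log2 fold changes from 1.13 to 1.38, -1.97 to -1.22 and -1.34 to -1.01. In the deposited order, where transgenic counts carry other genes' names, 18580 of 22083 tested genes were called. Among them were 6 of the 9 hedgehog genes and 43 other pathway genes. There *Ihh* stood at -3.20, *Ptch1* at 1.98 and *Smo* at -1.30. DESeq2 called 3232 of 26731 genes over the table and 16 of the other pathway genes. Library size without scaling called 3011 of 17643 genes and put *Shh* at 0.14. Without a filter on low counts 15 other pathway genes were called, beside 2618 of 26731 genes over the table. With the replicate number as a block, edgeR called 114 of 17643 genes, 0 of the 9 and 1 other pathway gene. Of the 9, 5 had an unadjusted p-value under 0.05 in that fit, as did 5178 of all 17643 genes. Replicate 1 minus replicate 2 correlated between the genotypes with r = 0.064 across genes. Each genotype gives a single such difference, and the WT replicates differed in sex, so this value cannot decide whether equal numbers mark pairs. Leaving out each sample gave 0 to 2470 genes over the table, 0 to 3 of the 9 and 0 to 20 other pathway genes, and -0.19 to 0.032 for *Shh*. All counts of 0 were without a WT sample, except that of the block. The rise of *Ihh* was called without either transgenic sample. The cause of these changes was not tested, except that fits without a sample hold fewer samples. The lowest count of the 9 genes in any sample was 74, of *Gli2* in transgenic replicate 1.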
